A study of Mus musculus with 4 samples.

Results

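The genes described here are 8 transcription factor genes of the outflow tract lineages: Tbx20, Meis1, Meis2, Gata4, Gata6, Hand2, Mef2c and Foxc1. They were chosen by name, with earlier results of these data known. Shares of all genes given beside theirs are therefore a description and not a neutral check. All 8 were found in each of the count files, whose common gene list holds 18108 genes. Their levels were read in smooth muscle cells, taken as cells with at least 5 UMIs of Myh11 (smooth muscle myosin) and 0 of Pdgfra (a fibroblast receptor), and in fibroblasts, taken as cells with at least 1 Pdgfra UMI and at most 2 Myh11 UMIs. A UMI (unique molecular identifier) counts 1 captured transcript. Smooth muscle cells were also divided by Tnnt2, the cardiac troponin T gene, into cells with at least 1 Tnnt2 UMI and cells with 0.

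The study asked how cells of the ascending aorta answer to angiotensin II (AngII), a vasoconstrictor peptide, and whether that answer depends on their embryonic origin, the second heart field or another. The mice were males of the strain Mef2c-mTmG, and live single cells of digested aorta were sorted by their lineage label before droplet capture. The mTmG reporter changes its membrane fluorescence after Cre recombination, and the strain name carries Mef2c, which is itself 1 of the 8 genes. The labels do not describe the driver further, nor the number or age of mice behind a library. The groups are SHF baseline (label SHF, untreated mice), SHF AngII (label SHF, 3 days of AngII infusion) and CNC AngII (label CNC, 3 days of AngII infusion). The labels do not spell out CNC, and its baseline sample was not analysed here. Each group is 1 library, so no difference has a replicate check and no test was made. The intervals given are 95% intervals that cover counting error only.

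The libraries held 92474476, 147854476 and 150954701 UMIs in the order above, and 8374, 9299 and 10194 cells passed the filters. The gates took 2259, 4649 and 6385 smooth muscle cells and 3939, 2640 and 842 fibroblasts. The smooth muscle marker list summed to between 56857 and 63893 CPM (counts of the listed genes scaled to the summed UMIs of the class) in smooth muscle cells and to between 1305 and 4059 CPM in fibroblasts. The fibroblast list summed to 38419 CPM in baseline fibroblasts and to 15393 and 13543 CPM in those of the AngII libraries, with all of its 8 genes detected. The cardiomyocyte list, summed, stayed between 70.6 and 76.0 CPM in smooth muscle cells. The lymphocyte and red cell lists stayed under 1 CPM in both classes. The libraries shared between 29 and 34 cell barcodes in each pair, of which 12 to 14 were gated cells in both. In sums over cells such as these, fewer expressing cells and less RNA per cell cannot be told apart from the level alone.

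Outflow tract transcription factors act together in the progenitors that build the base of the great arteries. Tbx20 is a T-box factor, Meis1 and Meis2 are homeodomain proteins that bind DNA with HOX partners, Gata4 and Gata6 are zinc finger factors, Hand2 is a basic helix-loop-helix factor, Mef2c is a MADS-box factor of muscle, and Foxc1 is a forkhead factor of mesenchyme and vessels. Several of them stay on in the adult arterial wall, where the media of the ascending aorta mixes smooth muscle of second heart field and neural crest descent. In the mouse build GRCm38 with the GENCODE M21 annotation, all 8 are protein-coding: Tbx20 (ENSMUSG00000031965) lies at chr9:24718138-24774303 on the minus strand, Meis1 (ENSMUSG00000020160) at chr11:18879817-19018985 on the minus strand and Meis2 (ENSMUSG00000027210) at chr2:115863064-116065839 on the minus strand. Gata4 (ENSMUSG00000021944) lies at chr14:63198922-63271692 on the minus strand, Gata6 (ENSMUSG00000005836) at chr18:11052064-11085635 on the plus strand, Hand2 (ENSMUSG00000038193) at chr8:57320983-57324633 on the plus strand, Mef2c (ENSMUSG00000005583) at chr13:83504034-83667080 on the plus strand and Foxc1 (ENSMUSG00000050295) at chr13:31806633-31812476 on the plus strand. The library kit reads the 3′ ends of transcripts, so a UMI stands for the gene as a whole and not for an exon or isoform.

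All 8 genes were detected in both cell classes of every library, and their patterns over the 9 sums (Tnnt2-positive smooth muscle, Tnnt2-negative smooth muscle and fibroblasts, in 3 libraries) differed in shape. Gata4 had the widest range, 24.5-fold from its lowest to its highest sum, and Tbx20 followed with 10.6-fold. The range was 4.53-fold for Mef2c, 4.15-fold for Meis1, 3.89-fold for Meis2 and 2.97-fold for Hand2. Foxc1 spanned 2.37-fold and Gata6 2.14-fold. The highest sum was a baseline sum for 7 of the genes, and for Tbx20 it was the Tnnt2-positive smooth muscle of CNC AngII. In the 1771 macrophage-gated cells of CNC AngII, which serve as a background for free RNA, 7 of the genes lay between 0.0960 and 3.27 CPM. Mef2c, which macrophages are known to express, stood there at 145 CPM.

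**Figure D1:**
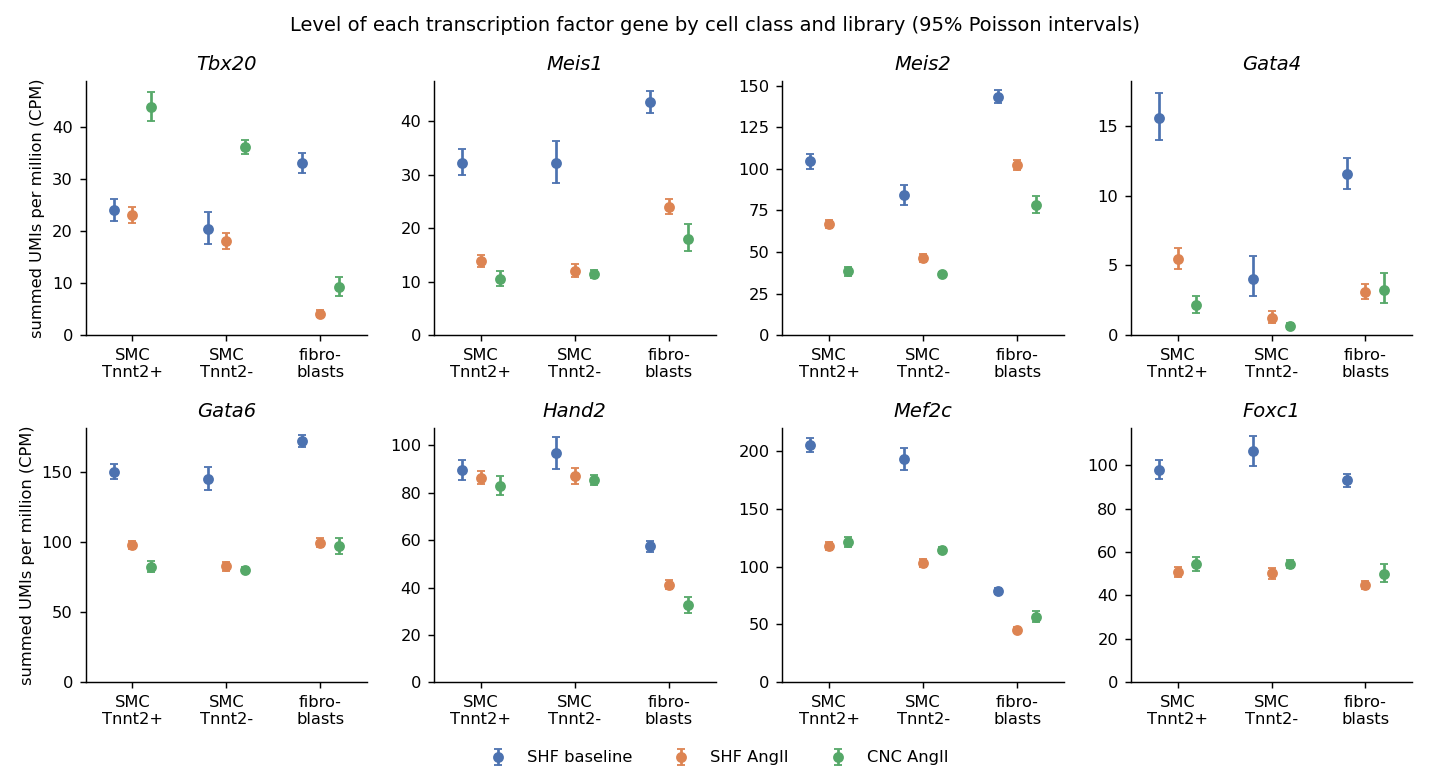
Level (CPM, vertical axis, from 0, with a separate scale for each gene) of the 8 genes in Tnnt2-positive smooth muscle cells, Tnnt2-negative smooth muscle cells and fibroblasts; colours are the 3 libraries and bars are 95% Poisson intervals. Tbx20 in baseline fibroblasts stands at 33.1 CPM against 4.12 CPM in SHF AngII, and Hand2 in the 6 smooth muscle sums stays between 83.0 and 96.7 CPM.

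In SHF smooth muscle cells 6 of the 8 genes were lower under AngII than at baseline by at least 1.5-fold, and none was higher. Across the 8844 genes measured in this comparison 16.3% were lower by that much and 8.40% were higher. The log2 ratios of CPM, with 1 CPM added to both sides, were -1.53 for Gata4, -1.24 for Meis1, -0.97 for Foxc1, -0.85 for Mef2c, -0.76 for Meis2 and -0.70 for Gata6. Tbx20 (-0.13) and Hand2 (-0.08) were near the median of all genes, which was -0.13, and both turned positive under TMM scaling (0.03 and 0.09). The median of the 8 was -0.80. The same 6 genes were lower in Tnnt2-positive cells taken alone, beside 14.4% of all genes there, and 5 of 7 measured genes in Tnnt2-negative cells, beside 19.4% of all genes, where Gata4 was under the minimum mean of 5 CPM that a gene needed to be measured.

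The baseline file was made with another gene annotation than the AngII files, so these ratios include that difference. Under TMM scaling, which centres the ratios on the bulk of genes and moved their median by 0.16, Gata6 stood at -0.53. Then 5 genes remained lower by at least 1.5-fold, beside 9.43% of all measured genes. The share of lower among all called genes went from 66.0% to 41.7%. The dissociation stress list (Fos, Jun, Egr1, Atf3, Hspa1a and Hspa1b) summed to 8149 CPM in baseline smooth muscle cells, 4917 in SHF AngII and 4355 in CNC AngII, and the median mitochondrial share was 7.36%, 5.43% and 5.16%. The pericyte list summed to 131, 92.1 and 76.5 CPM and the Schwann or neural list to 3.25, 1.38 and 1.22 CPM in the same order, and the mesothelial list to 0.0338, 4.72 and 0.0313 CPM. The part of these in the lower levels under AngII was not tested. With a stricter cell filter (1000 genes or more, 5% mitochondrial UMIs or less), which left 120 of the 2259 baseline cells, the same 6 genes were lower. The share of all genes lower under that filter is not given here.

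In SHF fibroblasts 6 of the 8 genes were also lower under AngII by at least 1.5-fold, against 29.1% of the 9543 genes measured, and none was higher, against 10.5%. Tbx20 had the lowest ratio, -2.73, and 37 of the measured genes, Tbx20 included, were as low or lower. Gata4 (-1.62), Foxc1 (-1.04), Meis1 (-0.83), Mef2c (-0.78) and Gata6 (-0.78) followed, while Meis2 (-0.48) and Hand2 (-0.47) stayed within 1.5-fold. The median of the 8 was -0.81 and that of all genes -0.25. Under TMM scaling the median of all genes moved by 0.26, and the lower share of the called genes went from 73.5% to 46.3%. Then 3 of the 8 genes remained lower by at least 1.5-fold, beside 16.6% of all measured genes: Tbx20 (-2.49), Gata4 (-1.39) and Foxc1 (-0.77). The stress list summed to 9549 CPM in baseline fibroblasts and to 4211 CPM in those of SHF AngII. The fibroblast markers were lower and the smooth muscle markers higher in the AngII fibroblasts, as given above. The pericyte list summed to 271 CPM at baseline and 166 CPM in SHF AngII, the mesothelial list to 4.06 and 20.04 CPM, the macrophage list to 8.60 and 19.8 CPM, and the Schwann or neural list to 23.2 and 29.0 CPM. The median depth was 9534 UMIs at baseline and 15485.5 in SHF AngII. The part of these in the result was not tested.

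The CNC and SHF libraries under AngII share their gene list, the SHF AngII library enters this comparison and the one above, and most of the genes had about the same level in both. In smooth muscle cells 1 of 7 measured genes, Tbx20, was higher in CNC AngII (log2 ratio 0.83) and 1, Meis2, was lower (-0.62). Of all 8750 genes measured, 1.47% were higher and 1.38% lower by at least 1.5-fold. Gata4 was under the minimum, with 3.63 CPM in the SHF library and 0.980 CPM in the CNC library. Mef2c (0.06), Foxc1 (0.10), Hand2 (-0.03), Gata6 (-0.17) and Meis1 (-0.21) differed by less than 1.5-fold, and the 95% counting interval of the Hand2 ratio ran from -0.08 to 0.01. In fibroblasts Tbx20 again was higher in CNC AngII (1.002) and no gene was lower, where 1.43% of 9255 genes were higher and 1.11% lower. The 842 CNC fibroblasts carried 106 Tbx20 UMIs, and with a pseudocount of 10 CPM this ratio was 0.45. All 8 macrophage markers were detected in the CNC classes and summed to 300.1 CPM in CNC smooth muscle cells and to 213 CPM in CNC fibroblasts, against at most 19.8 CPM in the gated cells of the SHF libraries. The mesothelial list summed to 4.72 CPM in SHF and 0.0313 CPM in CNC smooth muscle cells, and to 20.04 and 11.4 CPM in fibroblasts. The part of these lists in the differences was not tested, and among the 8 genes only Mef2c was above 3.27 CPM in the macrophage-gated cells of that library.

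**Figure D2:**
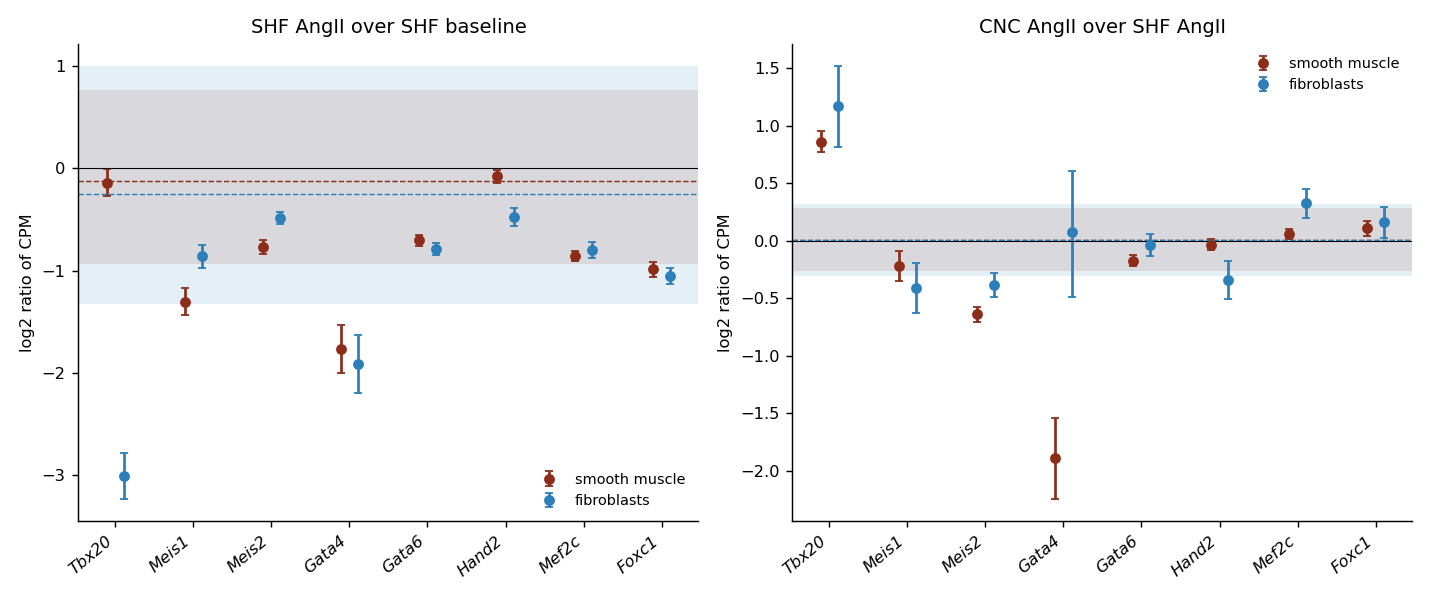
Log2 ratios of CPM without a pseudocount for the 8 genes, SHF AngII over SHF baseline (left) and CNC AngII over SHF AngII (right), in smooth muscle cells and fibroblasts; bars are 95% conditional binomial intervals, and shaded bands and dashed lines give the 5th to 95th percentiles and the median of all measured genes on the scale with 1 CPM added. On the left Gata4 in both classes, Tbx20 in fibroblasts and Meis1 and Foxc1 in smooth muscle cells lie below the band of their class. On the right Tbx20 lies above both bands, Mef2c in fibroblasts lies at the upper edge of its band, and Meis2 in both classes, Meis1 and Hand2 in fibroblasts and Gata4 in smooth muscle cells lie below the band of their class.

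Mef2c and Hand2 were lower in fibroblasts than in smooth muscle cells of the same library in all 3 libraries, and Tbx20 was lower in fibroblasts in both AngII libraries. At baseline 2 of 8 genes were lower in fibroblasts, Mef2c (-1.34) and Hand2 (-0.67), where 11.6% of genes were lower, and none was higher, where 25.8% were. In SHF AngII 3 of 7 measured genes were lower in fibroblasts, Tbx20 (-2.10), Mef2c (-1.28) and Hand2 (-1.06), against 14.7% of all genes. Meis1 (0.83) and Meis2 (0.81) were higher, against 23.2% of all genes. CNC AngII had the same 3 genes lower, Tbx20 (-1.92), Hand2 (-1.35) and Mef2c (-1.02), where 14.6% of genes were lower, and the same 2 higher, Meis2 (1.05) and Meis1 (0.65), where 22.4% were higher. Gata6 and Foxc1 stayed within 1.5-fold between the classes in all 3 libraries. These splits depend on the scaling: under TMM the lower share of all called genes went from 31.0% to 47.8% at baseline, from 38.8% to 54.3% in SHF AngII and from 39.4% to 57.9% in CNC AngII, and Meis1 in CNC AngII was at 0.41. The sign of the Gata6 ratio flipped under TMM in both SHF libraries, from 0.21 to -0.04 at baseline and from 0.13 to -0.08 under AngII.

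**Figure D3:**
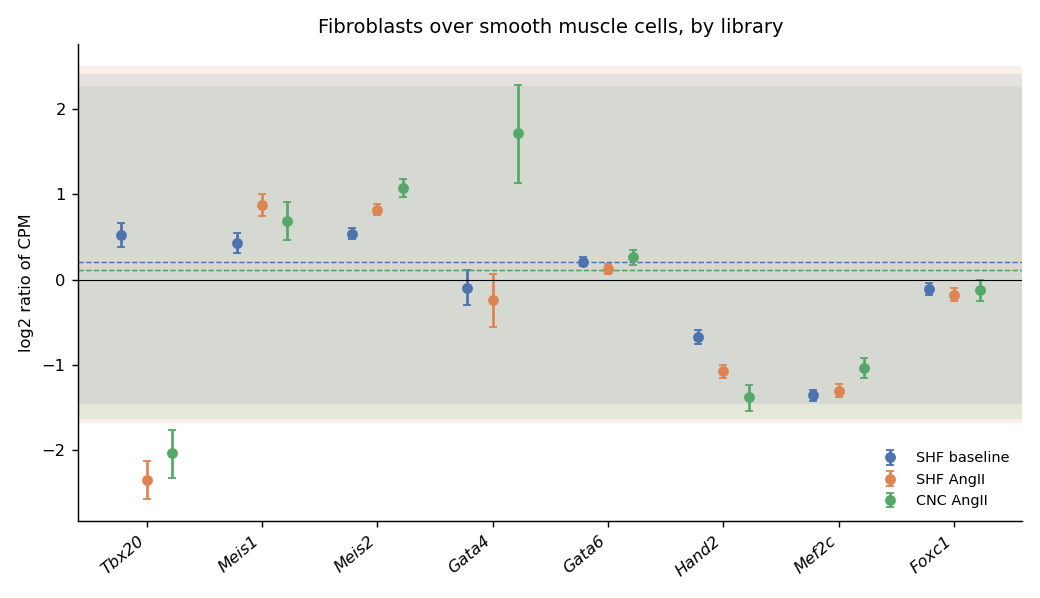
Log2 ratios of CPM without a pseudocount, fibroblasts over smooth muscle cells, for the 8 genes in the 3 libraries; bars are 95% conditional binomial intervals, and bands and dashed lines give the 5th to 95th percentiles and the median of all measured genes on the scale with 1 CPM added. Tbx20 lies above 0 at baseline and below -1.9 in both AngII libraries, and Mef2c and Hand2 lie below 0 in all 3.

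Tbx20, a T-box factor of the heart and outflow tract, was highest in CNC AngII among smooth muscle cells and in SHF baseline among fibroblasts. Smooth muscle cells held 23.0 CPM at baseline (21.3 to 24.8), 20.9 in SHF AngII (19.8 to 22.003) and 37.9 in CNC AngII (36.7 to 39.2). The CNC library thus stood apart from both SHF libraries. The intervals of the SHF libraries overlapped, but the counting interval of their ratio, AngII over baseline, ran from -0.271 to -0.005. The difference was present in both Tnnt2 classes, with 43.9 against 23.1 CPM in Tnnt2-positive cells and 36.2 against 18.1 CPM in Tnnt2-negative cells of CNC and SHF AngII. After each cell was thinned to 5000 UMIs, a Tbx20 UMI was seen in 9.39% of the smooth muscle cells of SHF baseline, 10.4% under AngII in SHF cells and 15.7% in CNC cells. The share was 0.413% of the macrophage-gated cells of CNC AngII. Without thinning the shares were 20.6%, 22.03%, 34.5% and 0.791%, at median depths of 12441, 13336, 13450 and 11109 UMIs. Fibroblasts held 33.1 CPM at baseline (31.3 to 35.0), 4.12 in SHF AngII (3.55 to 4.76) and 9.25 in CNC AngII (7.58 to 11.2). There the baseline was highest, and none of the 3 intervals overlapped. In endothelial-gated cells Tbx20 stood at 69.0 CPM at baseline (54.0 to 86.9), 50.05 in SHF AngII (33.5 to 71.9) and 42.2 in CNC AngII (21.1 to 75.5). These classes held 106, 49 and 41 cells. The endothelial marker list, with all 8 genes detected, summed to 61.1 CPM in baseline fibroblasts, 15.1 in SHF AngII and 19.7 in CNC AngII, and to between 12.9 and 17.7 CPM in smooth muscle cells. Its part in the fibroblast values of Tbx20 was not tested.

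In SHF fibroblasts Tbx20 had the lowest ratio of AngII over baseline of the 8 genes, whereas in SHF smooth muscle cells Gata4 had it. For the fibroblast result the 250 bases before the Tbx20 start in RefSeq (GRCm38.p6, chr9:24774304-24774553, minus strand) are shown. They are given 5′ to 3′ in lower case, with capitals for matches to any of 6 short motifs searched on both strands: AGATAA for GATA factors, TGACAG for MEIS, GGTGTGA for T-box, CATCTG for HAND, GTAAACA for forkhead and TATAAA for the TATA box.
Tbx20: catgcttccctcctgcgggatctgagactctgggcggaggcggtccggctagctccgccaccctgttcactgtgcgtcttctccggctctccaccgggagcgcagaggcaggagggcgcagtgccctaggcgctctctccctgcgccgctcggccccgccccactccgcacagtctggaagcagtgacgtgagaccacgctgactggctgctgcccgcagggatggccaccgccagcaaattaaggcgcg
This window holds none of these letters and is 68.8% G or C. Among 32851 RefSeq promoter windows of the same length, 9.99% held the GATA letters, 15.9% the MEIS letters, 3.33% the T-box letters, 14.4% the HAND letters, 3.17% the forkhead letters and 12.4% the TATA letters. Of the 8 genes, 6 had a promoter entry in the table.

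The fibroblast level of Tbx20 at baseline came from a small share of the cells. Of 3939 baseline fibroblasts, 3558 had no Tbx20 UMI, and the 186 cells (4.72%) with at least 2 held 84.4% of all Tbx20 UMIs, up to 34 in 1 cell. In smooth muscle cells of the same library, 5.98% of cells had at least 2 and held 51.5%, with at most 9 in a cell. In the AngII libraries 35 of 2640 SHF fibroblasts (1.33%) and 17 of 842 CNC fibroblasts (2.02%) had at least 2. Thinned to 5000 UMIs per cell, the shares were 2.86% at baseline (2.31 to 3.49%), 0.399% in SHF AngII (0.192 to 0.733%) and 0.910% in CNC AngII (0.367 to 1.87%). The SHF baseline share was above that of both AngII libraries, and the last 2 intervals overlapped. CNC AngII differs from SHF baseline in label as well as treatment.

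The baseline fibroblasts with at least 2 Tbx20 UMIs had a profile of their own, given here as a description because the cells were picked on Tbx20. Their leading genes against cells without Tbx20 were Wif1, a secreted WNT inhibitor, at 944 against 12.02 CPM, 1500015O10Rik (2132 against 88.4 CPM) and Chad, which encodes the cartilage matrix protein chondroadherin (284 against 10.8 CPM). Comp, another cartilage and tendon matrix gene, stood at 1020.4 against 64.9 CPM, and Scx, the tendon factor scleraxis, at 138 against 4.82 CPM. Gata4 was also higher in them, at 64.9 against 6.69 CPM. Hand2 (81.6 against 54.6 CPM), Mef2c (104 against 75.2 CPM) and Gata6 (204 against 170 CPM) were higher by smaller ratios. Meis1 was nearly level (46.5 against 43.3 CPM), and Meis2 (125 against 145 CPM) and Foxc1 (83.3 against 93.3 CPM) were lower. Pi16, a marker of adventitial fibroblasts, was lower, at 490.2 against 3680 CPM. Cytl1 was also higher in these baseline cells, at 735 against 230 CPM. In the 35 such cells of SHF AngII the leading genes were Ctla2a (318 against 4.66 CPM) and Cytl1 (774 against 31.3 CPM). Wif1 and Chad were again among their 6 leading genes, at 148 against 11.7 CPM and 38.0 against 1.31 CPM. Gata4 was at 4.56 against 2.92 CPM there, from 3 UMIs. In the 17 such cells of CNC AngII Cytl1 (1094 against 39.4 CPM) and Ctla2a (147 against 7.08 CPM) led. Gata4 was at 23.8 against 2.49 CPM there, from 5 UMIs, and Wif1 at 28.5 against 7.75 CPM, from 6 UMIs. Comp was at 95.1 against 225 CPM and Chad had no UMI.

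Tbx20 levels also differed between fibroblasts divided by other genes, a division chosen after the data were seen. In Pi16-negative baseline fibroblasts (550 cells) Tbx20 stood at 135 CPM and Gata4 at 33.1 CPM, and in Pi16-positive ones (3389 cells) they stood at 17.3 and 8.22 CPM. In SHF AngII the 265 Pi16-negative cells had 11.4 CPM of Tbx20 and the 2375 Pi16-positive ones 3.48 CPM. The Pi16-negative share of fibroblasts was 14.0% at baseline and, under AngII, 10.0% in SHF and 15.1% in CNC cells. Within Pi16-positive cells the log2 ratio of AngII over baseline was -2.03 for Tbx20 and -1.29 for Gata4, and within Pi16-negative cells it was -3.45 and -2.20. Cells with a UMI of Comp or Chad were 11.1% of baseline fibroblasts and 25.2% of those of SHF AngII, and Tbx20 was at 92.3 CPM in the former and 7.35 CPM in the latter. In cells without either gene it was at 24.9 and 2.81 CPM. Tbx20 was lower in SHF AngII than at baseline in each of these 4 subsets. The subsets come from overlapping divisions of the same cells and need not hold like cells in both libraries. The Pi16 and the Comp or Chad shares were taken without thinning, and a deeper cell more often shows a UMI of a given gene. Untreated SHF fibroblasts had a median of 9534 UMIs, against 15485.5 for SHF and 12379.5 for CNC fibroblasts after AngII. The part of depth in these shares was not tested. Whether the mix of fibroblasts has a part in the lower level was not tested. In CNC AngII the order by Comp or Chad was the other way, with 6.09 CPM in cells that had a UMI of either and 11.4 CPM in cells that had none.

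**Figure D4:**
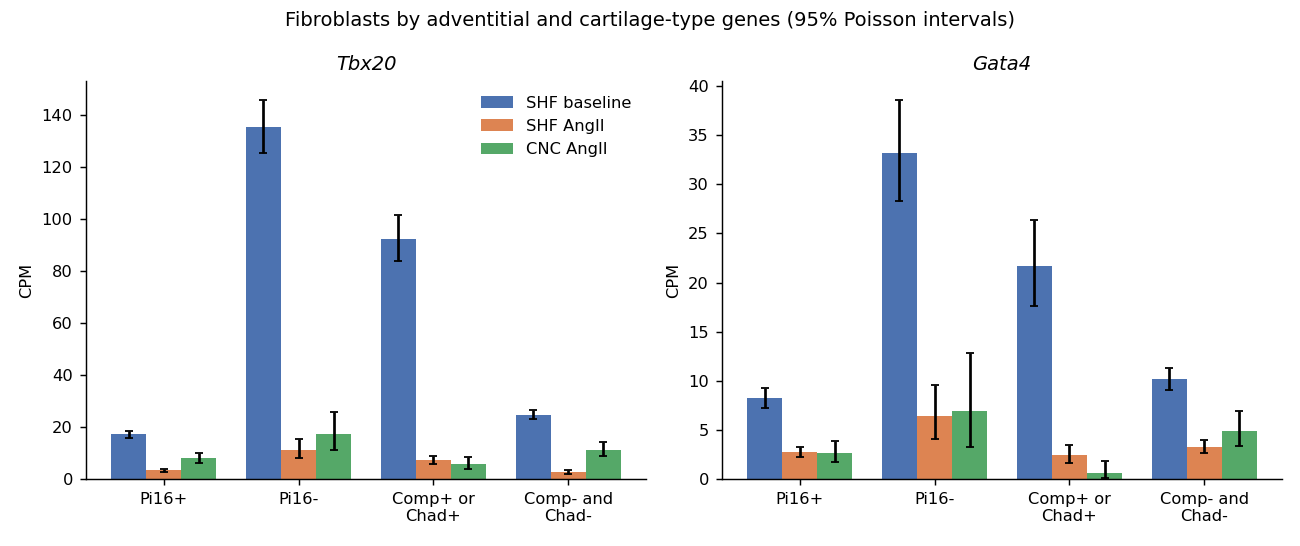
Tbx20 (left) and Gata4 (right) in fibroblasts, in CPM from 0, divided by a UMI of Pi16 and by a UMI of Comp or Chad; colours are the 3 libraries and bars carry 95% Poisson intervals. The Pi16-negative baseline cells stand highest, at 135 CPM for Tbx20 and 33.1 CPM for Gata4, and no AngII bar of Tbx20 passes 17.4 CPM.

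Meis1 and Meis2, homeodomain factors of the TALE class, were higher in fibroblasts than in smooth muscle cells under AngII. In SHF smooth muscle cells both were lower under AngII than at baseline. Meis1 stood at 32.3, 13.1 and 11.2 CPM in smooth muscle cells of SHF baseline, SHF AngII and CNC AngII, and at 43.6, 24.0 and 18.1 CPM in fibroblasts. Both AngII libraries were below the SHF baseline library in both classes, without overlap of the counting intervals. For CNC AngII, label and treatment cannot be told apart in this. Meis2 stood at 98.7, 57.9 and 37.2 CPM in smooth muscle cells and at 143, 102 and 78.2 CPM in fibroblasts. It was thus lowest in CNC AngII in both classes. The smooth muscle difference between CNC and SHF AngII was larger in Tnnt2-positive cells, with 38.4 against 66.7 CPM (log2 ratio -0.78, 95% counting interval -0.91 to -0.69), than in Tnnt2-negative cells, with 36.9 against 46.5 CPM (-0.33, interval -0.43 to -0.24). The Tnnt2-positive cells held unlike Tnnt2 levels, 845 CPM in SHF and 231 CPM in CNC AngII. Without thinning, Meis2 in CNC against SHF AngII was 34.5 against 52.4 CPM at 1 Tnnt2 UMI. It was 35.7 against 54.5 CPM at 2 to 4 and 52.2 against 80.0 CPM at 5 or more. In thinned cells the intervals overlapped at 5 or more (77.4 against 93.6 CPM) and not in the lower bins. The part of the Tnnt2 level in the larger difference was not tested. The ratio over all smooth muscle cells, -0.62, lay close to 1.5-fold and missed it with a stricter cell filter (-0.57) and with a pseudocount of 10 CPM (-0.52). Exons of Meis1 overlap the antisense gene Gm16140 over 896 bases, and that gene had at most 34 UMIs in these classes. They also overlap Gm37818 on the same strand over 1029 bases, which was not used here.

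Gata4 and Gata6 encode zinc finger factors that share much of their DNA binding and act together in the outflow tract. Gata6 had 149 CPM in baseline smooth muscle cells, 91.4 in SHF AngII and 81.0 in CNC AngII, with 172, 99.8 and 97.2 CPM in fibroblasts. Its AngII libraries lay close together and below SHF baseline in both classes. CNC AngII differs from that baseline in label as well as treatment, and these cannot be told apart. Gata4 had 12.3 CPM in baseline smooth muscle cells (11.1 to 13.7), 3.63 in SHF AngII (3.19 to 4.10) and 0.980 in CNC AngII (0.792 to 1.20). The intervals did not overlap, and without a pseudocount the log2 ratio of CNC over SHF AngII was -1.89 (-2.25 to -1.54). In fibroblasts Gata4 was at 11.6, 3.07 and 3.23 CPM, so the AngII libraries did not differ beyond counting error there. In the macrophage-gated cells of CNC AngII Gata4 had 2 UMIs, or 0.0960 CPM. The antisense gene 1010001N08Rik overlaps 93 exon bases of Gata6 and stood between 1.12 and 5.51 CPM in the 2 classes.

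Among smooth muscle cells Gata4 went with Tnnt2. At baseline it was at 15.6 CPM in Tnnt2-positive cells and 4.06 CPM in Tnnt2-negative cells, a log2 ratio of 1.71, and only 4 of 8985 measured genes were as high or higher. It was the 1 gene of the 8 past 1.5-fold, where 0.523% of genes were higher and 0.301% lower. In SHF AngII 0 of 7 measured genes passed, where 1.28% of genes were higher and 0.219% lower, and in CNC AngII 0 of 7, where 0.977% were higher and 0.0568% lower. Gata4 itself was under the minimum mean of 5 CPM in both, at 5.46 against 1.26 CPM in SHF cells and 2.13 against 0.637 CPM in CNC cells. Without a pseudocount its log2 ratios were 1.94 (1.43 to 2.497) at baseline, 2.12 (1.62 to 2.66) in SHF AngII and 1.74 (1.13 to 2.36) in CNC AngII. The 3 intervals overlapped.

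Since a deeper cell more often shows a Tnnt2 UMI, the cells were also thinned to 5000 UMIs and divided by their Tnnt2 UMIs after thinning. At baseline Gata4 stood at 4.52 CPM in cells with 0 Tnnt2 UMIs, 5.02 with 1, 9.13 with 2 to 4 and 36.4 with 5 or more. In SHF AngII the same bins had 1.98, 3.17, 5.37 and 11.5 CPM. In CNC AngII they had 0.800, 6.33, 6.25 and 7.55 CPM, the last from 4 UMIs in 106 cells. Meis2 also was higher with more Tnnt2 in the SHF libraries. Between the lowest and highest bins it went from 87.5 to 124 CPM at baseline and from 49.6 to 93.6 CPM in SHF AngII. In CNC AngII its bins had 38.1, 35.7, 39.1 and 77.4 CPM, so only the last was higher, from 41 UMIs in 106 cells. Mef2c went from 198 to 224 CPM at baseline, from 104 to 147 CPM in SHF AngII and from 119 to 143 CPM in CNC AngII. Its intervals overlapped between the lowest and highest bins at baseline and in CNC AngII. Between these bins Gata6 rose from 84.9 to 112 CPM in SHF AngII, and Foxc1 fell from 111 to 88.8 CPM at baseline, without overlap. In the other libraries the Gata6 and Foxc1 intervals overlapped. The cardiomyocyte list summed to 75.5 CPM in Tnnt2-positive and 58.1 CPM in Tnnt2-negative baseline cells, and to 70.7 and 71.8 CPM in those of SHF AngII. Tnnt2 itself was at 743, 477 and 53.3 CPM in smooth muscle cells of SHF baseline, SHF AngII and CNC AngII.

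**Figure D5:**
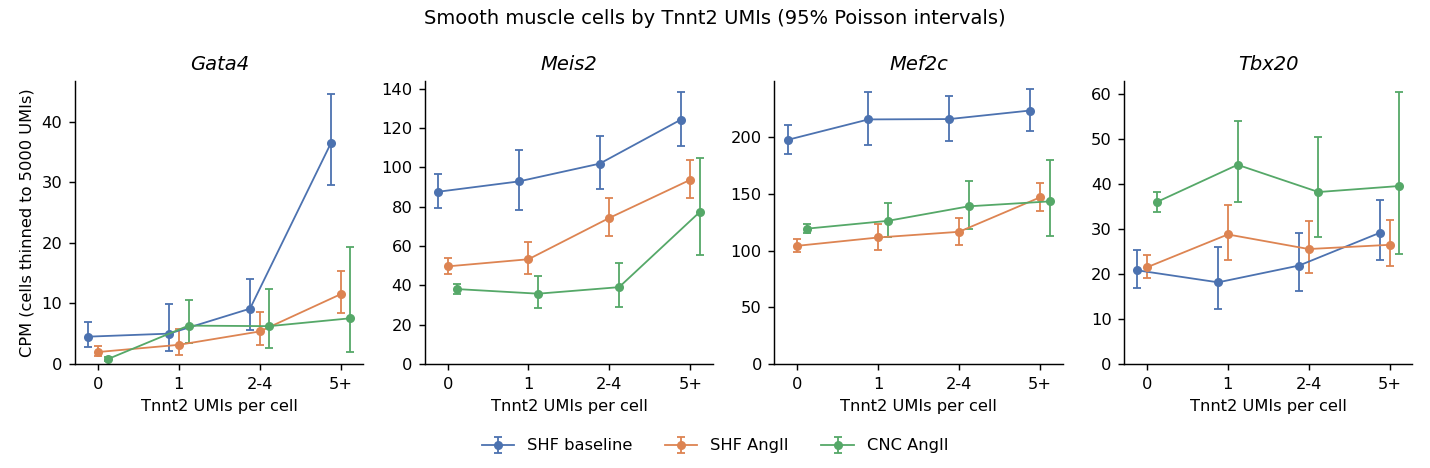
Gata4, Meis2, Mef2c and Tbx20 in smooth muscle cells thinned to 5000 UMIs, in CPM from 0, by the number of Tnnt2 UMIs in the thinned cell; colours are the 3 libraries and bars are 95% Poisson intervals. Gata4 at baseline goes from 4.52 CPM with 0 Tnnt2 UMIs to 36.4 CPM with 5 or more, while the Tbx20 points of CNC AngII lie above those of both SHF libraries in every bin.

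Hand2, a basic helix-loop-helix factor of the second heart field and the arches, was the steadiest gene among smooth muscle cells. It stood at 91.6 CPM at baseline (88.2 to 95.1), 86.7 in SHF AngII (84.5 to 88.9) and 84.7 in CNC AngII (82.9 to 86.6). Both AngII values overlapped in their intervals, and SHF AngII overlapped the baseline only at the edge. Fibroblasts had 57.4, 41.2 and 32.6 CPM in the same order, with no overlap between the 3. The Hand2 ratio of AngII over baseline in smooth muscle cells was -0.08 (counting interval -0.14 to -0.01) and turned to 0.09 under TMM scaling.

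The window before the Hand2 start is shown because an antisense gene, Hand2os1, lies across it. Hand2os1 is a long noncoding RNA gene of the opposite strand, at chr8:57281117-57324233 in GENCODE M21, where it overlaps 461 exon bases of Hand2, and the high-coordinate end of its RefSeq span, its own start for a minus-strand gene, lies 124 bases before the Hand2 start. The RefSeq window (GRCm38.p6, chr8:57320733-57320982, plus strand, 5′ to 3′) has capitals at the HAND letters CATCTG, which begin 246 bases before the start, and at TTATCT, the GATA letters on the other strand, 172 bases before it.
Hand2: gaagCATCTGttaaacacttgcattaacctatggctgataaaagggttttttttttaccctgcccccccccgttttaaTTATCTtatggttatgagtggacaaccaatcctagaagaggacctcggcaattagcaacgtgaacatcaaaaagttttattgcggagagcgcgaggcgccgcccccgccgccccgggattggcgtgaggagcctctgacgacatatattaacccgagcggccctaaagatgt
The matches are a description of letters and not of binding. The values of Hand2os1, which was looked up because of its overlap and not by the rule for named genes, did not follow those of Hand2. In SHF AngII it stood at 42.0 CPM in smooth muscle cells (40.5 to 43.6) and 29.2 CPM in fibroblasts (27.6 to 30.8), and in CNC AngII at 9.72 CPM (9.11 to 10.4) and 11.5 CPM (9.64 to 13.7). The log2 ratio of CNC over SHF AngII was -2.005 in smooth muscle cells and -1.27 in fibroblasts, and in smooth muscle cells it was -1.94 with Tnnt2 and -1.67 without. In SHF AngII Hand2os1 was at 50.9 CPM in Tnnt2-positive and 30.5 CPM in Tnnt2-negative smooth muscle cells. The baseline file, which lists the gene under its older name Gm28063, had 1 UMI in smooth muscle cells and 0 in fibroblasts. That file uses another annotation, so its value was not compared. The strand setting of the counting is not given in the sources used here, so reads of the overlapping bases cannot be assigned to 1 of the 2 genes.

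Mef2c, a MADS-box factor and the gene after which the strain is named, had the lowest ratio of fibroblasts to smooth muscle cells of the 8 genes at baseline, with 202 CPM in smooth muscle cells and 78.8 CPM in fibroblasts. Under AngII the smooth muscle value was 111 CPM in SHF and 116 CPM in CNC cells, and the fibroblast values were 45.3 and 56.7 CPM. Both classes were lower than at SHF baseline, the only baseline used here. Under AngII, CNC fibroblasts were above SHF fibroblasts (log2 ratio 0.32, counting interval 0.19 to 0.45) by less than 1.5-fold. Since a 3′ UMI does not show which promoter or transgene a transcript came from, a contribution of the strain's construct to these UMIs was not tested. Foxc1, a forkhead factor, had nearly the same level in both classes of each library: 100.3 and 93.1 CPM at baseline, 50.6 and 44.9 CPM in SHF AngII, and 54.4 and 50.0 CPM in CNC AngII. Foxc1 was lower under AngII in both classes of SHF cells and did not pass 1.5-fold in any other comparison.

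Of 40 other lineage transcription factors, 19 were measured in SHF smooth muscle cells, and 4 of them were lower under AngII with none higher, beside 16.3% of all genes lower and 8.40% higher. They were Foxf1, a forkhead factor (18.4 to 5.20 CPM), Isl1, a marker of second heart field progenitors (8.87 to 2.92 CPM), Nr2f2 and Snai2. The median log2 ratio of the 19 was -0.40. In fibroblasts 12 of 22 were lower, among them Mef2a (-1.34), Nr2f2 (-1.26) and Msx1 (-1.20), and Snai1, a repressor of epithelial genes, was higher (29.7 to 80.5 CPM). Of all genes in fibroblasts, 29.1% were lower and 10.5% higher. Their median was -0.63. Of 14 cofactors, 4 were lower in smooth muscle cells, among them Srf, the serum response factor, a MADS-box relative of Mef2c (42.2 to 16.8 CPM). In fibroblasts 5 of 12 measured cofactors were lower and 1, Smarcd3, was higher. Of 19 Hox genes, 6 were measured in smooth muscle cells with 1 lower, and 7 in fibroblasts with 2 lower and 1 higher.

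Between CNC and SHF AngII these lists moved in few genes. In smooth muscle cells 2 of 16 measured lineage factors were lower in CNC AngII, Tcf21, a factor of fibroblast and epicardial lineages (13.7 to 0.428 CPM, log2 ratio -3.36), and Nr2f2 (25.2 to 15.8 CPM), beside 1.38% of all genes. The mesothelial list, 5 of 5 genes detected in SHF and 3 of 5 in CNC cells, was at 4.72 and 0.0313 CPM in the same comparison, and its part in the Tcf21 difference was not tested. No cofactor of 13 and no Hox gene of 6 passed 1.5-fold, beside 1.47% of all genes higher and 1.38% lower. In fibroblasts Tcf21 (135 to 62.7 CPM) and the cofactor Zfpm1 (11.5 to 6.46 CPM) were lower, the only calls among 19 lineage factors, 12 cofactors and 7 Hox genes, beside 1.11% of all genes lower and 1.43% higher. Between the classes the same lists divided further: Myocd, the smooth muscle coactivator, was at 78.1 CPM in baseline smooth muscle cells and 1.82 CPM in fibroblasts, whereas Tcf21 was at 17.8 and 236 CPM. At baseline 10 of 22 lineage factors were higher in fibroblasts and 4 lower, beside 25.8% and 11.6% of all genes.

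Pearson correlations of log2 levels over the 9 sums describe which genes had like patterns. The sums share libraries, so no p is given. The baseline sums also come from a file with another gene annotation, and its part in these correlations was not tested. Meis1 correlated at 0.957 with Gata6 and at 0.933 with Meis2, and Gata6 at 0.884 with Foxc1. Hand2 correlated at 0.884 with Mef2c and at 0.702 with Tbx20, but at -0.402 with Meis2. Gata4 was closest to Gata6, at 0.865. Among 5029 genes with a mean of at least 20 CPM, the pair most like Tbx20 was Mgrn1 (0.976) and Golgb1 (0.974), and for Gata4 it was Gnao1 and Igbp1, both at 0.938. Jag1 (0.994) and Cbx3 (0.992) were most like Meis1, and Abi3bp and Cavin2 (both 0.986) most like Meis2. The pairs were Lhfp (0.995) and Nfia (0.994) for Gata6, Id1 (0.993) and Popdc2 (0.992) for Hand2, and Atp2a2 and Gm26632 (both 0.993) for Mef2c. For Foxc1 they were Gtpbp2 and Fam177a (both 0.990), and Fam177a ran from 1.02 to 72.6 CPM over the sums.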

How the data were processed

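Single cells of sorted aorta were captured with the 10x Chromium 3′ kit (version 3), per the labels' protocols. The deposited tables hold UMI counts per gene and cell. The tools fastp, STAR 2.5 and HTSeq 0.6.1 and the build mm10 appear, per the submitters' processing notes, without their roles, and strand use in counting is not given in the sources used here. The baseline file lists 18760 genes and both AngII files 32285. The 18108 common genes were used, 514 of them matched by a synonym, and 13 duplicated baseline names were left out.

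The cell filter asked for 500 genes or more and a mitochondrial share of 10% or less, and 205, 191 and 277 doublets called by Scrublet (scanpy 1.11.5) were left out. UMIs were summed per class and library (numpy 2.4.6, pandas 2.3.3, scipy 1.17.1). Ratios used a pseudocount of 1 CPM unless stated. A gene was measured at a mean of at least 5 CPM and called at 1.5-fold or more. With 1 library a group no test across libraries was possible. Level intervals are exact Poisson, ratio intervals conditional binomial without a pseudocount, and share intervals Clopper-Pearson, all at 95%. TMM scaling came from edgeR 4.0.16. The ratio, calling and interval steps were tested on simulated counts at the level of the class sums. Gating and summing over cells were not simulated.

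The 8 genes, the gates and the gene lists were chosen with earlier results of these data known. Named genes were the 8, called members of 3 lists (other lineage factors, cofactors, Hox genes), the 2 genes most like each of the 8 over 9 sums, and marker genes whose values moved with a result. Other genes named were chosen after their values were seen. For 10 comparisons, 11 alternatives for the counts and 9 for the ratios were tried: cell filters, doublets kept, scalings, per-cell means, thinning, pseudocount, gates, the fold and the low-value filter. The values of some listed genes are not reported here.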

Additional observations from a re-analysis of the deposited data

How the results depend on the processing

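Of 752 log2 ratios of the 8 genes recomputed under alternatives, 617 moved by less than their counting interval, 135 moved by more and 0 of the called ones changed sign. Of 110 recomputed counts of genes past 1.5-fold, 98 stayed within 1.5 times. With 2-fold in place of 1.5-fold, the counts were 2 (Meis1, Gata4) under AngII in SHF smooth muscle cells, 3 (Tbx20, Gata4, Foxc1) in SHF fibroblasts, 0 for CNC over SHF AngII in smooth muscle cells, 1 (Mef2c) for fibroblasts over smooth muscle cells at baseline and 3 (Tbx20, Hand2, Mef2c) in SHF AngII. TMM scaling left 3 genes lower in SHF fibroblasts under AngII, beside 16.6% of all measured genes. For CNC over SHF AngII, the stricter cell filter and the pseudocount of 10 CPM each left 1 gene (Tbx20) in smooth muscle cells, and that pseudocount left 0 in fibroblasts. For Tnnt2-positive over Tnnt2-negative cells, the stricter filter, which left 120 baseline smooth muscle cells, gave 2 at baseline (Gata4 higher, Meis1 lower). No filter on low values gave 1 (Gata4) in each AngII library. Apart from TMM scaling, the share of all genes past the fold under each of these settings is not given here. The counts therefore show only how the calls on the 8 genes moved. The Tbx20 ratio of CNC over SHF AngII ranged from 0.60 to 1.20 in smooth muscle cells, and that of AngII over baseline in fibroblasts from -2.74 to -1.61. No paired analysis was possible because each group is 1 library.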

Other observations

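In the 12 macrophage-gated cells of SHF baseline, which enter no comparison above, Tbx20 stood at 202 CPM (128 to 303), from 23 UMIs in 4 cells. Fibroblast markers summed to 15241 CPM and macrophage markers to 8704 CPM in this class.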
